A study of Mus musculus with 7 samples.

Results

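Alanine transfer RNAs (tRNAs) were examined in a set of 7 RNA libraries from the mouse macrophage line RAW264.7. They were taken as every entry of the count table whose name contains tRNA-Ala and that is not an exon, intron or UTR piece. This gave 23 entries, 9 with the anticodon AGC, 7 with CGC and 7 with TGC, out of 224 named tRNA entries, 3894 entries for whole RNAs and 580839 entries in all. Each entry is a different isodecoder, that is, a tRNA with the same anticodon and another body sequence. All 23 were counted in at least 1 library, and 3 of them held fewer than 100 counts over the 7 libraries together.

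The series asks how loss of Dis3l2, an exoribonuclease that degrades RNA from its 3′ end, changes the RNA that macrophages hold and the RNA they release in extracellular vesicles (EVs). Whole cells and EVs were sequenced from a line with a non-silencing hairpin (shNS) and from a line with a hairpin against Dis3l2 (shDis3l2). EVs alone were sequenced from 3 further shDis3l2 lines that also carried an empty vector (Vector), a hairpin-resistant Dis3l2 transgene (Dis3l2r) or the transgene with the D389N change, described as catalytically inactive (D389N). All lines were kept in doxycycline at 1 µg/mL, each group had 1 library, and whether a line was a clone or a pool is not given in the sources used here. Before extraction, EVs were separated by density in sucrose, and the concentrated vesicles were digested with micrococcal nuclease. Library synthesis relied on template switching by an enzyme related to group II intron reverse transcriptases, which reads through structured RNAs such as tRNA. Depletion of rRNA is stated for whole-cell RNA only, so compartment and preparation cannot be told apart in any comparison of EVs with cells. The table does not pair transcripts with gene names, so the level of Dis3l2 and the macrophage markers were not checked here.

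Alanine tRNAs carry alanine to the 4 codons that begin with GC. The anticodon AGC, whose first base is changed to inosine in the mature tRNA, reads several of these codons, TGC reads mainly those ending in a purine, and CGC reads the one ending in G. The acceptor stem of these tRNAs holds a G-U pair by which alanyl-tRNA synthetase recognizes them. Names are written with T for U, as in the table. RefSeq (GRCm38.p6) lists 33 alanine tRNA genes, 13 with AGC, 9 with CGC and 11 with TGC. Of these genes, 12 lie on chromosome 13 between positions 21222586 and 23438768 and 12 on chromosome X between 136357602 and 136590436. The gene bodies are 72 nt long in 25 genes and 73 nt in 8, so levels of different alanine tRNAs can be set side by side without a length correction. RefSeq symbols could not be paired with the table's isodecoder names.

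Depth was 32342600 and 37041326 estimated counts on whole-RNA entries in the cell libraries, and 13439408 to 25177102 in the EV libraries. Named tRNA made up 13.7% of these counts in shNS cells and 9.09% in shDis3l2 cells, and 70.2% to 76.9% in the 5 EV libraries. Levels are given as counts-per-million (CPM), relative to the whole-RNA total of each library. Scaling to the tRNA total of each library instead gives other answers for the same tRNA, and both are reported. In the cells, 1 transcript took 19.3% of whole-RNA counts under shNS and 46.1% under shDis3l2. Alanine tRNA held between 438556 and 951326 counts per library. Intervals below cover counting error only, and they say nothing of the spread between cultures. Counts do not tell full-length tRNA from fragments, and a level relative to a library total does not tell fewer molecules per cell or vesicle from fewer cells or vesicles. Isodecoders are near-identical in sequence and reads were shared among them by estimation: of the 161 alanine tRNA values, 144 were not whole numbers. Values of single isodecoders are therefore uncertain beyond their counting intervals, and sums per anticodon less so.

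Alanine tRNA was the most abundant tRNA class in cells and a mid-ranking one in EVs. It took 18.7% of tRNA counts in shNS cells and 20.7% in shDis3l2 cells, rank 1 of 23 classes in both. In EVs its share was 3.93% in shNS (95% exact binomial interval 3.92 to 3.94), 3.86% in shDis3l2, 4.52% in Vector, 4.65% in Dis3l2r and 4.05% in D389N, and its rank lay between 8 and 10. The cell and EV shares did not overlap. The log2 change of the share from cells to EVs of the same line was -2.25 for shNS and -2.42 for shDis3l2, the second lowest of the 23 classes in both lines. Tyrosine tRNA was lowest, at -3.11 and -3.64. The single most abundant tRNA entry of the EVs, tRNA-Gly-TCC-1-1, took 15.3% to 28.3% of EV tRNA counts. With the most abundant tRNA entry of each library left out, alanine tRNA still stood at 20.3% and 22.5% in cells against 4.78% to 5.90% in EVs.

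**Figure D1:**
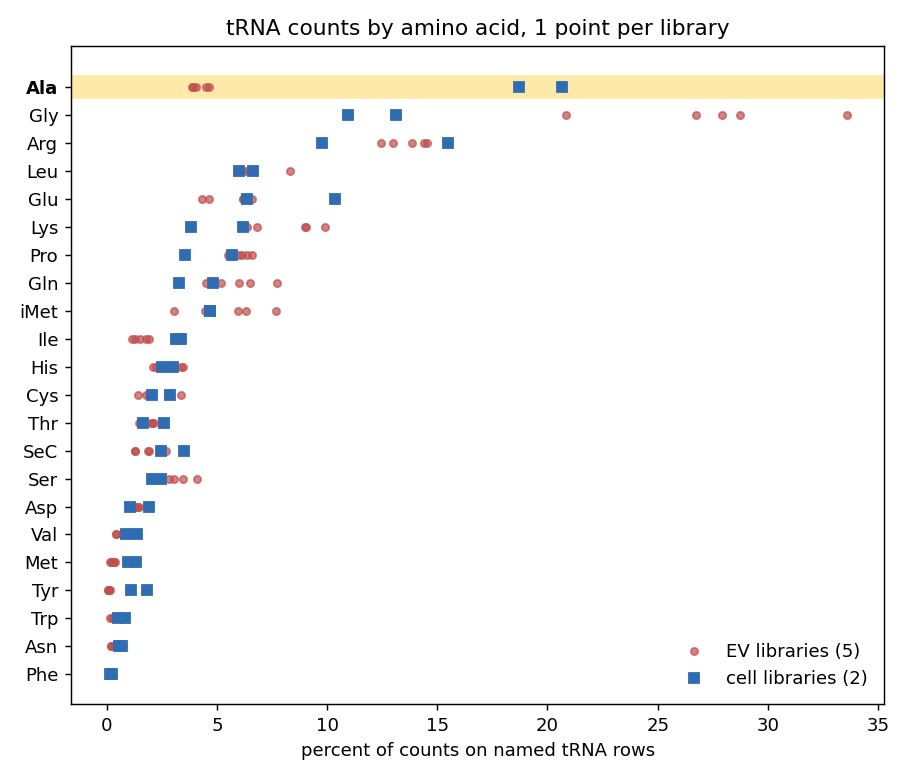
Percent of counts on named tRNA entries (horizontal axis) for 22 tRNA classes (vertical axis; suppressor tRNA, near 0, is not drawn), with blue squares for the 2 cell libraries and red circles for the 5 EV libraries. Alanine tRNA, on the shaded line, lies at 18.7% and 20.7% in cells and between 3.86% and 4.65% in EVs.

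As a share of all whole-RNA counts the picture was different. Alanine tRNA stood at 25683 CPM in shNS cells and 18795 CPM in shDis3l2 cells. The EV levels were 29474 CPM in shNS, 27405 in shDis3l2, 34755 in Vector, 32632 in Dis3l2r and 30273 in D389N. All 5 EV libraries were above both cell libraries on this scale, by a smaller margin than most other tRNAs. The log2 ratio of EVs to cells was 0.20 (interval 0.19 to 0.20) for shNS and 0.54 for shDis3l2, and it turned to -2.25 and -2.42 when libraries were scaled to their tRNA totals. Over the 6 scalings tried, the shNS ratio ran from -2.25 to 1.29 and was above 0 in 3. The shDis3l2 ratio ran from -2.42 to 1.27 and was above 0 in 4, so the sign depends on the scale in both lines.

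The 3 anticodons divided these counts differently in the 2 compartments. In cells, Ala-TGC made up 80.9% (shNS) and 77.7% (shDis3l2) of alanine tRNA counts, Ala-AGC 12.5% and 15.2%, and Ala-CGC 6.59% and 7.12%. In EVs, Ala-TGC took 39.8% in shNS, 36.6% in shDis3l2, 32.4% in Vector, 35.2% in Dis3l2r and 32.5% in D389N. Ala-AGC took 45.3%, 49.7%, 54.7%, 51.8% and 54.7% in the same order, and Ala-CGC 15.0%, 13.7%, 12.9%, 13.0% and 12.9%. The order of the anticodons was thus TGC, AGC, CGC in both cell libraries and AGC, TGC, CGC in all 5 EV libraries. The number of AGC counts per TGC count, a ratio that no scaling between libraries can change, was 0.154 and 0.196 in cells. It was 1.14, 1.36, 1.69, 1.47 and 1.68 in EVs, above both cell values in every library.

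**Figure D2:**
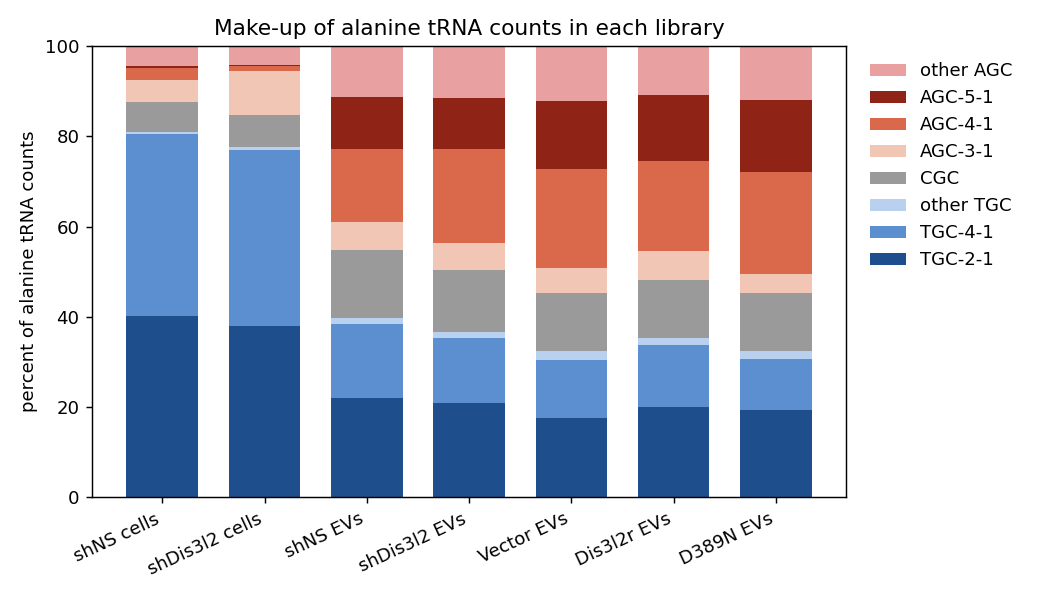
Make-up of alanine tRNA counts in each of the 7 libraries, as stacked percentages of that library's alanine tRNA counts; blue shades are TGC isodecoders, grey is CGC and red shades are AGC isodecoders. The 2 dark blue TGC segments fill most of both cell bars, and AGC-4-1 and AGC-5-1 fill little of the cell bars and much more of the 5 EV bars.

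Ala-TGC was the most abundant of all 51 anticodon families in both cell libraries. It stood at 20786 CPM in shNS cells and 14600.2 CPM in shDis3l2 cells. In EVs it was 11719.6 CPM in shNS, 10039.6 in shDis3l2, 11255 in Vector, 11494 in Dis3l2r and 9831 in D389N. Every EV library was below both cell libraries, and the family ranked between 19 and 22 of 51 there. The log2 ratio of EVs to cells was -0.83 (interval -0.83 to -0.82) for shNS and -0.54 (-0.55 to -0.53) for shDis3l2; scaled to tRNA totals it was -3.28 and -3.50, and with the size factors of DESeq2 it was 0.27 and 0.18, so the sign depends on the scale. Among 48 families with enough counts, the tRNA-scaled change of Ala-TGC was the fifth lowest for shNS and the fourth lowest for shDis3l2. The median family changed by -0.32 and -0.15 on that scale. The families lower than Ala-TGC for shNS were Gly-ACC, Tyr-GTA, Leu-CAA and Ile-TAT, and the same except Ile-TAT for shDis3l2. All of these but Gly-ACC also have spliced tRNA entries, which the family sums leave out, so the rank does not cover them.

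A pair of isodecoders, tRNA-Ala-TGC-2-1 and tRNA-Ala-TGC-4-1, held nearly all of the family. tRNA-Ala-TGC-2-1 stood at 10312 CPM in shNS cells and 7144 in shDis3l2 cells, and at 6483, 5724, 6077, 6516 and 5866 CPM in shNS, shDis3l2, Vector, Dis3l2r and D389N EVs. tRNA-Ala-TGC-4-1 stood at 10381 and 7329 CPM in cells and at 4858, 3938, 4508, 4467 and 3438 CPM in EVs, in the same order. Both were lower in every EV library than in either cell library. In cells the pair was almost even, with 0.993 and 0.975 counts of tRNA-Ala-TGC-2-1 per count of tRNA-Ala-TGC-4-1, while in EVs the ratio ran from 1.33 in shNS to 1.71 in D389N. The smaller tRNA-Ala-TGC-1-1 went the other way, with 59.8 and 106 CPM in cells and 287, 290.1, 527, 385 and 393 CPM in EVs. It made up 0.288% and 0.728% of Ala-TGC counts in cells and between 2.45% and 4.68% in EVs.

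Ala-AGC was higher in EVs than in cells in CPM. Scaled to tRNA totals it was lower in EVs than in cells of the same line, but the EV and cell libraries overlapped. It stood at 3204 CPM in shNS cells and 2856 CPM in shDis3l2 cells. In EVs it was 13342 CPM in shNS, 13623 in shDis3l2, 19009.7 in Vector, 16889 in Dis3l2r and 16549 in D389N, all above both cell libraries. The log2 ratio of EVs to cells was 2.06 (interval 2.05 to 2.07) for shNS and 2.25 (2.24 to 2.26) for shDis3l2. Scaled to tRNA totals it was -0.39 and -0.71. Its share of tRNA counts was 2.33% in shNS cells and 3.14% in shDis3l2 cells. In shNS, shDis3l2, Vector, Dis3l2r and D389N EVs the share was 1.78%, 1.92%, 2.47%, 2.41% and 2.21%. The Vector and Dis3l2r EVs thus lay above shNS cells on that scale.

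Within this family the isodecoders had unlike ratios of EVs to cells. tRNA-Ala-AGC-4-1 stood at 657 CPM in shNS cells and 196 in shDis3l2 cells, and at 4773, 5696, 7559, 6481 and 6881 CPM in the 5 EV libraries. tRNA-Ala-AGC-5-1 stood at 132 and 44.5 CPM in cells and at 3359, 3079, 5258, 4749 and 4795 CPM in EVs. Both were well above both cell libraries in every EV library, and they also stayed above them when scaled to tRNA totals. tRNA-Ala-AGC-3-1, the most abundant AGC isodecoder in cells, stood at 1288 and 1825 CPM there and at 1859.7, 1669, 1942, 2087 and 1246 CPM in EVs. These ranges overlapped. Its share of Ala-AGC counts was 40.2% and 63.9% in cells and between 7.53% and 13.9% in EVs, while that of tRNA-Ala-AGC-5-1 was 4.13% and 1.56% in cells and between 22.6% and 29.0% in EVs.

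tRNA-Ala-AGC-2-1 stood at 490.3 and 407 CPM in cells and at 1186, 1111, 1376, 1233 and 1159 CPM in EVs. The rare tRNA-Ala-AGC-8-1 stood at 1.60 and 3.32 CPM in cells, from 59.1 and 107 counts. In EVs it was 68.3 CPM in shNS, 142.9 in shDis3l2, 254.5 in Vector, 69.6 in Dis3l2r and 143.3 in D389N, again above both cell libraries on either scale. It was at most 1.34% of Ala-AGC counts in any library, and the part that reads shared with more abundant relatives play in its values was not tested.

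Ala-CGC, the least abundant of the 3 anticodons in every library, was higher in EVs in CPM and lower when scaled to tRNA totals. It stood at 1692 and 1339 CPM in shNS and shDis3l2 cells, and at 4413, 3742, 4491, 4249 and 3892 CPM in the 5 EV libraries. All EV libraries were above both cell libraries. The log2 ratio was 1.38 (interval 1.37 to 1.40) for shNS and 1.48 (1.47 to 1.50) for shDis3l2; scaled to tRNA totals it was -1.07 and -1.48. tRNA-Ala-CGC-1-1 held 61.8% to 76.9% of the family, with 1154 and 1029.6 CPM in cells and 2754, 2663, 3164, 3018 and 2405 CPM in EVs. tRNA-Ala-CGC-2-1 held most of the rest, with 536 and 308 CPM in cells and 1654, 1074, 1323, 1225 and 1482 CPM in EVs. The other 5 CGC isodecoders held at most 82.1 counts in any library, and tRNA-Ala-CGC-6-1 had 2.25 counts in Vector EVs and none elsewhere.

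**Figure D3:**
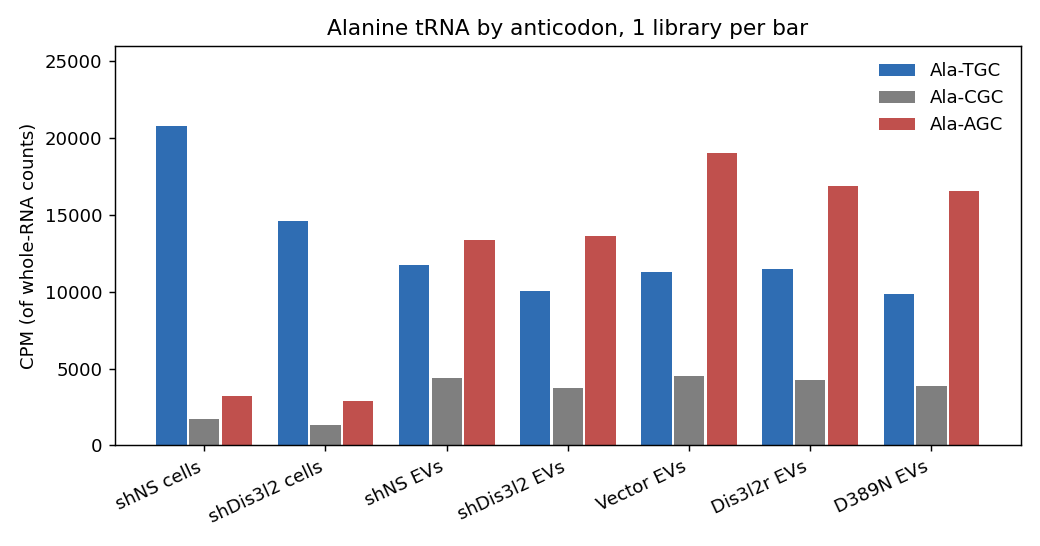
Counts of the 3 alanine anticodon families in each library, in CPM; each bar is 1 library and starts at 0. The blue TGC bar is tallest in both cell libraries (20786 and 14600.2 CPM) and the red AGC bar in all 5 EV libraries (13342 to 19009.7 CPM).

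The EV libraries were then set against the cells of the same line, 1 library a side and so without a test. An isodecoder counted as measured with 100 or more counts summed over the pair, and it passed the rule of size when its ratio was also 2-fold or larger and the counting interval excluded no change. For shNS, 17 of the 23 could be measured, of which 14 were higher and 1 lower in EVs. Of all 531 whole-RNA entries measured in that pair, 91.5% passed, 32.0% higher and 59.5% lower, and of the other tRNA entries 75.2% were higher and 7.45% lower. The largest log2 ratios were 5.42 (interval 5.05 to 5.82) for tRNA-Ala-AGC-8-1, 4.66 for tRNA-Ala-AGC-5-1, 2.86 for tRNA-Ala-AGC-4-1, 2.26 for tRNA-Ala-TGC-1-1 and 2.06 for tRNA-Ala-AGC-7-1. The 1 that was lower was tRNA-Ala-TGC-4-1, at -1.10 (-1.10 to -1.09), and tRNA-Ala-TGC-2-1, at -0.67, fell short of 2-fold. With tRNA totals 9 passed, of which 2 were higher and 7 lower.

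For shDis3l2, 16 could be measured, with 12 higher and 0 lower in EVs. The share over all whole-RNA entries was 91.2%, with 33.1% higher and 58.1% lower, and 80.7% of other tRNA entries were higher. The largest log2 ratios were 6.11 (interval 6.04 to 6.19) for tRNA-Ala-AGC-5-1, 5.43 for tRNA-Ala-AGC-8-1, 4.86 for tRNA-Ala-AGC-4-1, 3.15 for tRNA-Ala-AGC-6-1 and 2.80 for tRNA-Ala-AGC-7-1. tRNA-Ala-TGC-4-1 was at -0.90 and tRNA-Ala-TGC-2-1 at -0.32. Scaled to tRNA totals, 12 passed, of which 3 were higher and 9 lower; with TMM, 8 were higher and 1 lower, and with the most abundant cell transcript left out of the totals, 7 were higher and 2 lower. The median log2 ratio of the alanine tRNAs was 1.63 in both lines, against 1.96 and 2.67 for other tRNA entries and -3.54 and -3.32 for all whole-RNA entries.

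**Figure D4:**
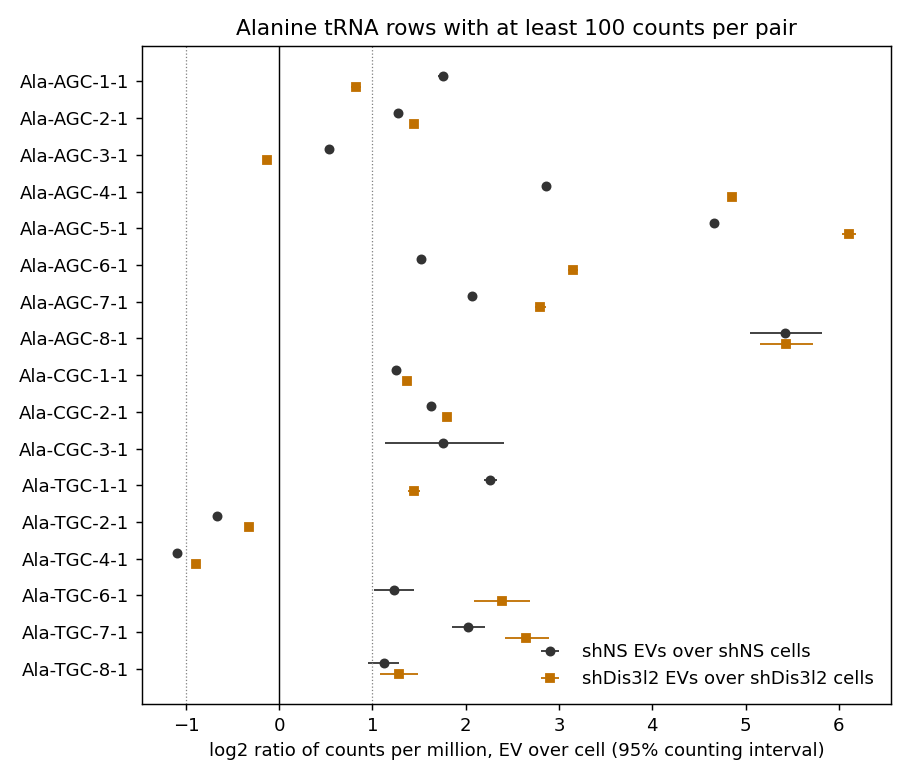
Log2 ratio of CPM in EVs over cells (horizontal axis, with 95% counting intervals) for alanine tRNA isodecoders with at least 100 counts in the pair, black circles for shNS and orange squares for shDis3l2; dotted lines mark 2-fold. AGC-8-1, AGC-5-1 and AGC-4-1 lie farthest to the right in both lines and TGC-4-1 farthest to the left.

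A fit over all 7 libraries compared the 5 EV with the 2 cell libraries, with the Dis3l2 class as a covariate, so that libraries of different lines stood in for replicates. Of 642 whole-RNA entries tested with edgeR's quasi-likelihood test, 78.8% had a Benjamini-Hochberg adjusted p under 0.05, with 31.2% higher and 47.7% lower in EVs. Of the 21 alanine tRNAs with enough counts, 15 were higher and 1 lower, beside 70.5% higher and 4.21% lower among 190 other tRNA entries. tRNA-Ala-AGC-5-1 was higher by 5.73 on the log2 scale (SE 0.643, edgeR adjusted p = 3.59e-06), tRNA-Ala-AGC-8-1 by 5.61 (SE 0.686, adjusted p = 8.04e-06) and tRNA-Ala-AGC-4-1 by 4.01 (SE 0.597, adjusted p = 4.48e-05). These 3 were called in each fit without 1 of the 7 libraries. Scaled to tRNA totals, their log2 fold changes were 3.05, 2.87 and 1.36, all called. tRNA-Ala-TGC-7-1 was higher by 2.83 (SE 0.675, edgeR adjusted p = 0.00196), from 5.98 and 9.49 CPM in cells to between 37.4 and 70.5 CPM in EVs. With tRNA totals it was at 0.12 (edgeR adjusted p = 0.869), not called, and its EV and cell libraries overlapped. tRNA-Ala-CGC-7-1 is among the 15, from 1.0 and 0 counts in cells and 2.0 to 35.0 in EVs, but it met the count filter only through Dis3l2r and D389N EVs, where it is high, and could not be tested without either of these. edgeR no longer called it without either cell library, with TMM (adjusted p = 0.0647) or with tRNA totals (adjusted p = 0.268), so its call says little.

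tRNA-Ala-TGC-4-1 was the 1 alanine tRNA lower in EVs, by -1.02 (SE 0.344, edgeR adjusted p = 0.0163). Its call was lost without shNS cells, shNS EVs or Dis3l2r EVs (adjusted p up to 0.0644), and the DESeq2 size factors gave 0.16. tRNA-Ala-TGC-2-1 (-0.47, adjusted p = 0.228) and tRNA-Ala-AGC-3-1 (0.18, adjusted p = 0.683) were not called by edgeR with whole-RNA totals. Other scalings did call them: tRNA-Ala-TGC-2-1 was lower with TMM (-0.98, edgeR adjusted p = 0.0173) and with tRNA totals (-3.20, adjusted p = 7.76e-06), and at 0.72, not called, with DESeq2 size factors. tRNA-Ala-AGC-3-1 was lower with tRNA totals (-2.61, edgeR adjusted p = 0.000233), higher with DESeq2 size factors (1.36, adjusted p = 0.0126) and at -0.36, not called, with TMM. Of the 16 calls, 10 were kept when each library was left out in turn. The 6 lost in at least 1 such fit were tRNA-Ala-AGC-1-1, tRNA-Ala-CGC-3-1, tRNA-Ala-CGC-7-1, tRNA-Ala-TGC-4-1, tRNA-Ala-TGC-6-1 and tRNA-Ala-TGC-8-1. Some of these calls were lost without any 1 of several EV libraries. For tRNA-Ala-CGC-3-1 and tRNA-Ala-TGC-6-1 these were shNS, shDis3l2, Vector and Dis3l2r, and for tRNA-Ala-TGC-8-1 shNS, Dis3l2r and D389N. With tRNA totals 10 alanine tRNAs were called, 3 higher and 7 lower. TMM gave 11 higher and 2 lower, and the size factors of DESeq2 gave 18 higher and 0 lower.

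With entries summed per anticodon before the fit, Ala-AGC was higher in EVs by 2.38 (SE 0.405, edgeR adjusted p = 0.000147) and Ala-CGC by 1.48 (SE 0.380, adjusted p = 0.00327), both turning below 0 when scaled to tRNA totals. Ala-TGC was at -0.66 (SE 0.331, adjusted p = 0.0835) and was not called. Scaled to tRNA totals, edgeR gave -3.39 (SE 0.290, adjusted p = 2.47e-06) for Ala-TGC, -1.26 (SE 0.321, adjusted p = 0.00481) for Ala-CGC and -0.35 (SE 0.326, adjusted p = 0.354) for Ala-AGC. Without any model, 17 of these 21 isodecoders were above and 2 below both cell libraries in all 5 EV libraries in CPM, where 82.4% of all 642 entries did not overlap, 33.0% above and 49.4% below. Among other tRNA entries, 73.2% were above and 6.84% below in CPM. Scaled to tRNA totals, 3 of the 21 isodecoders were above (tRNA-Ala-AGC-4-1, tRNA-Ala-AGC-5-1 and tRNA-Ala-AGC-8-1) and 11 below, where 76.0% of all entries did not overlap, 11.8% above and 64.2% below. On that scale 25.3% of other tRNA entries were above and 36.8% below.

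In cells, the anticodon sums of the shDis3l2 and shNS libraries lay close together, and the share of isodecoders past 2-fold was near that of all entries. The log2 ratio of shDis3l2 to shNS cells was 0.10 for Ala-AGC, -0.07 for Ala-CGC and -0.24 for Ala-TGC with TMM scaling, and each of these changed sign under at least 1 other scaling. Over the scalings tried, every ratio of this pair shifted together by between -0.35 and 0.33. Of 16 isodecoders measured, 6 (37.5%) passed the rule of size, 3 higher and 3 lower, where 35.7% of all 513 whole-RNA entries passed, 11.7% higher and 24.0% lower. Among other tRNA entries 3.36% were higher and 18.8% lower. The split was 1 higher and 4 lower with whole-RNA totals, 0 and 4 with totals of all table entries, and 4 and 2 either with tRNA totals or with the most abundant cell transcript left out.

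The 3 lower isodecoders were all AGC. tRNA-Ala-AGC-4-1 went from 657 to 196 CPM, a TMM-scaled log2 ratio of -1.48 (interval -1.52 to -1.44). tRNA-Ala-AGC-6-1 went from 362 to 108 CPM, also -1.48 (-1.54 to -1.43), and tRNA-Ala-AGC-5-1 from 132 to 44.5 CPM, -1.31 (-1.39 to -1.22). In the same cells tRNA-Ala-AGC-3-1 was higher by 0.77, which is under 2-fold, so that the counts of tRNA-Ala-AGC-4-1 per count of tRNA-Ala-AGC-3-1 were 0.510 in shNS cells and 0.107 in shDis3l2 cells. In EVs this ratio, which no scaling changes, was 2.57 in shNS and 3.41 in shDis3l2. The 3 higher isodecoders were tRNA-Ala-AGC-8-1 at 1.32 (interval 0.85 to 1.81), tRNA-Ala-TGC-1-1 at 1.10 (1.02 to 1.18; 59.8 to 106 CPM) and tRNA-Ala-AGC-1-1 at 1.06 (1.00 to 1.12; 103 to 178 CPM). With 1 library a side, how far 2 cultures of the same line would differ in these values is not known.

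In EVs, few alanine tRNAs differed by 2-fold between the shDis3l2 and shNS lines. Their share, 11.1%, was near the 11.2% of all entries and above the 6.17% of other tRNA entries. The anticodon sums differed by 0.12 for Ala-AGC, which was -0.02 with totals of all table entries, by -0.14 for Ala-CGC and by -0.13 for Ala-TGC. Of 18 isodecoders measured, 2 were higher and 0 lower, where 11.2% of all 411 whole-RNA entries passed, 7.06% higher and 4.14% lower. Among other tRNA entries 4.94% were higher and 1.23% lower. tRNA-Ala-AGC-8-1 went from 68.3 to 142.9 CPM, a log2 ratio of 1.16 (interval 1.07 to 1.25). tRNA-Ala-TGC-5-1 was at 1.43 (0.83 to 2.06), from 34.6 to 69.2 counts. The isodecoders that were lower in knockdown cells, tRNA-Ala-AGC-4-1, tRNA-Ala-AGC-5-1 and tRNA-Ala-AGC-6-1, were at 0.35, -0.03 and -0.03 in knockdown EVs.

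The transgene lines were compared with the Vector line in EVs. These comparisons share libraries, so their values stand side by side and are not independent. Dis3l2r against Vector gave 0 higher and 1 lower of 19 alanine tRNAs measured, where 32.1% of all 393 entries passed, 24.7% higher and 7.38% lower. The 1 was tRNA-Ala-AGC-8-1, with 254.5 CPM in Vector and 69.6 in Dis3l2r, a log2 ratio of -1.94 (interval -2.04 to -1.84). D389N against Vector gave 0 of 19, where 23.2% of all 379 entries passed, 10.8% higher and 12.4% lower, and tRNA-Ala-AGC-8-1 was at -0.57 (-0.64 to -0.51). D389N against Dis3l2r gave 1 higher and 0 lower of 17, where 24.5% of all 379 entries passed, 2.64% higher and 21.9% lower. It was again tRNA-Ala-AGC-8-1, at 1.27 (1.17 to 1.38); scaled to tRNA totals it was at 0.95, under 2-fold, and tRNA-Ala-CGC-3-1, with 47.2 counts against 62.0, passed as lower in its place. The anticodon sums lay between -0.24 and 0.20 in these 3 comparisons, and all but Ala-AGC in Dis3l2r against Vector changed sign under some scaling. Among other tRNA entries, 0.621% were higher and 15.5% lower in Dis3l2r against Vector. The same shares were 7.23% and 19.3% in D389N against Vector, and 3.8% and 5.06% in D389N against Dis3l2r.

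**Figure D5:**
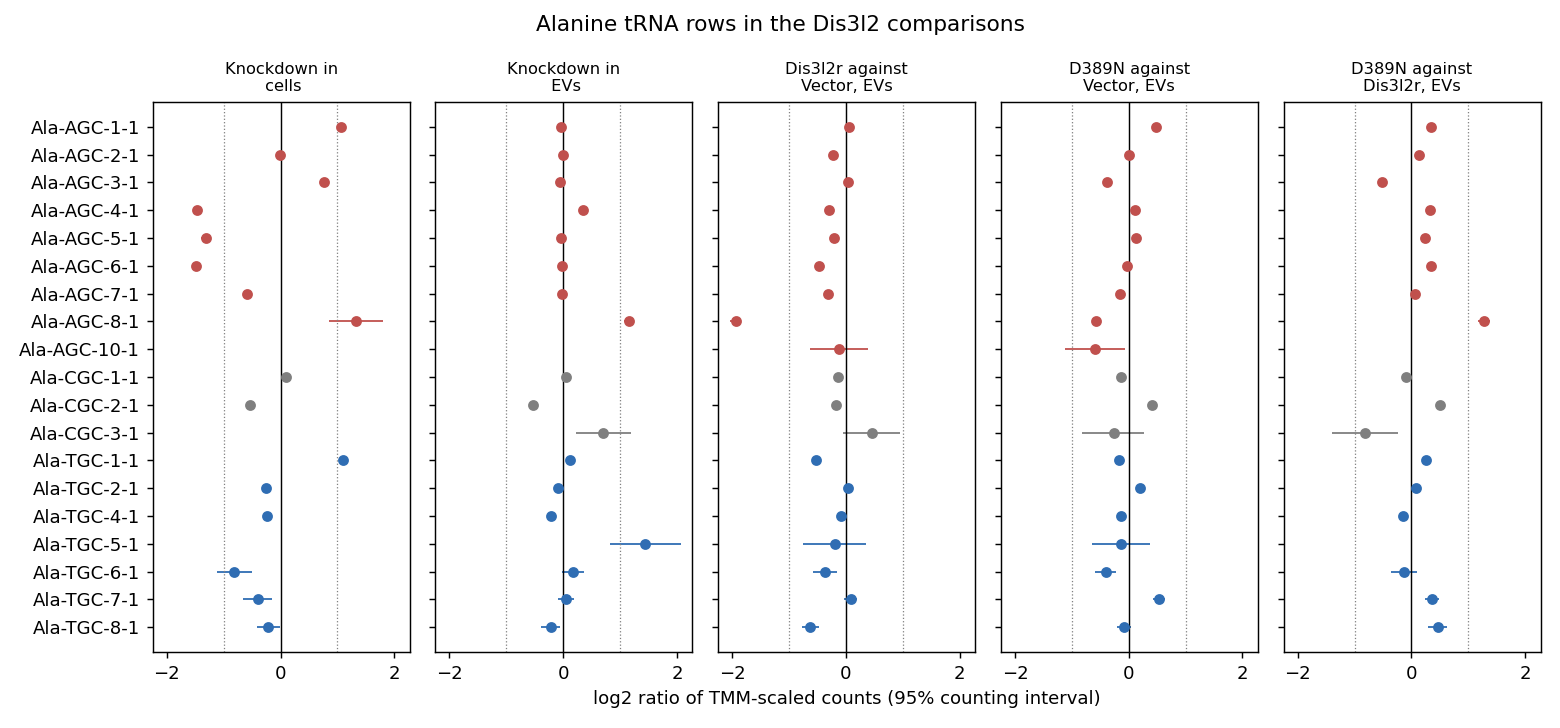
TMM-scaled log2 ratios with 95% counting intervals (horizontal axis) of alanine tRNA isodecoders in 5 comparisons, 1 library a side; red is AGC, grey CGC and blue TGC, and dotted lines mark 2-fold. In cells AGC isodecoders lie on both sides of 0, and in the 4 EV panels most points lie within 2-fold while AGC-8-1 stands at 1.16, -1.94, -0.57 and 1.27.

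A fit over the 5 EV libraries compared shDis3l2, Vector and D389N, classed here as lacking active Dis3l2, with shNS and Dis3l2r, classed as having it, a class taken from the genotypes in the labels. edgeR's quasi-likelihood test called 0.174% of 575 entries, all of that share lower and 0.0% higher, and 0 of the 21 alanine tRNAs tested; 1 of these had an unadjusted p under 0.05, and DESeq2 also called 0. The 1 was tRNA-Ala-AGC-8-1, higher without active Dis3l2 by 1.62 on the log2 scale (SE 0.466, edgeR adjusted p = 0.425). Over the alternatives its log2 fold change ran from 1.34 to 1.71, and its adjusted p was never under 0.0817, the value given by DESeq2. Its 142.9, 254.5 and 143.3 CPM in the 3 libraries without active Dis3l2 were all above its 68.3 and 69.6 CPM in the 2 with it. In CPM, 1 alanine tRNA was above and 1 (tRNA-Ala-TGC-2-1) below in this way, where 27.3% of all entries did not overlap, 5.74% above and 21.6% below. With tRNA totals tRNA-Ala-TGC-4-1 was below as well, where 26.1% of all entries did not overlap, 5.39% above and 20.7% below. Of other tRNA entries, 7.94% were above and 2.12% below in CPM, and 6.35% and 2.12% with tRNA totals. In the fit, which was scaled by TMM, tRNA-Ala-TGC-2-1 was at 0.10 (SE 0.358, edgeR adjusted p = 0.941). There tRNA-Ala-TGC-4-1 was at -0.0018 (SE 0.365, edgeR adjusted p = 0.997). Neither was called, and the sign for tRNA-Ala-TGC-2-1 depends on the scale. The summed families gave 0.44 (SE 0.381) for Ala-AGC, 0.21 (SE 0.363) for Ala-CGC and 0.14 (SE 0.359) for Ala-TGC, with edgeR adjusted p of 0.672, 0.787 and 0.859; the latter pair turned below 0 when scaled to tRNA totals. A smallest adjusted p of 0.425 does not show that alanine tRNAs were equal in the 2 classes.

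Vector against shDis3l2 compares 2 lines that share the hairpin and differ by an added vector. Of 19 alanine tRNAs measured, 3 were higher in Vector EVs and 0 lower, where 23.9% of all 393 entries passed, 8.91% higher and 15.0% lower. Among other tRNA entries 14.5% were higher and 1.21% lower. tRNA-Ala-AGC-1-1 went from 316 to 653 CPM, a log2 ratio of 1.08 (interval 1.04 to 1.12). tRNA-Ala-TGC-8-1 went from 25.5 to 55.0 CPM, at 1.14 (0.99 to 1.30), and tRNA-Ala-AGC-10-1 was at 1.31 (0.71 to 1.95), from 30.2 to 98.9 counts. With tRNA totals, tRNA-Ala-AGC-1-1 (0.93) and tRNA-Ala-TGC-8-1 (0.99) fell under 2-fold, and of the 3 only tRNA-Ala-AGC-10-1 still passed. tRNA-Ala-AGC-8-1 was at 0.87 (0.80 to 0.93) here, under 2-fold, and at 1.16 (1.07 to 1.25) in the knockdown EVs.

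The 3 EV libraries of lines with an added construct (Vector, Dis3l2r and D389N) were also set against the 2 EV libraries of lines without one (shNS and shDis3l2), a split by the labels that was chosen after the data were seen and that was not tested. Of 21 alanine tRNAs, 8 were above and 1 below in all libraries, 42.9%, where 21.7% of all 575 entries did not overlap, 11.0% above and 10.8% below, and 39.2% of other tRNA entries did not overlap. tRNA-Ala-AGC-5-1 stood at 5258, 4749 and 4795 CPM with a construct and 3359 and 3079 CPM without one. tRNA-Ala-AGC-4-1 stood at 7559, 6481 and 6881 CPM against 4773 and 5696 CPM. tRNA-Ala-AGC-1-1 stood at 653, 708 and 765 CPM against 346 and 316 CPM. tRNA-Ala-TGC-1-1, tRNA-Ala-TGC-7-1, tRNA-Ala-TGC-8-1 and tRNA-Ala-AGC-10-1 were also above. So was tRNA-Ala-CGC-7-1, but with 3.83, 10.0 and 35.0 counts against 3.00 and 2.0 it met the count filter only through the libraries where it is high. In the other direction, tRNA-Ala-CGC-4-1, with 4.5 to 35.8 counts in EVs, was below. The same 9 did not overlap when scaled to tRNA totals, where 23.3% of all entries did not, 10.4% above and 12.9% below. Of other tRNA entries 43.4% did not overlap on that scale, 22.2% above and 21.2% below. The construct was not separated from other differences between these lines.

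The families most like each alanine anticodon over the 7 libraries were found by the root mean square difference of centred log2 CPM, over 48 families with at least 100 counts in every library. Ala-AGC was closest to Gly-GCC (0.216), Thr-CGT (0.296) and Glu-CTC (0.303). Ala-CGC was closest to Glu-TTC (0.245), Phe-GAA (0.346) and Val-TAC (0.386). Ala-TGC was closest to Leu-CAA (0.308), Gly-ACC (0.367) and Tyr-GTA (0.390). Leu-CAA and Tyr-GTA also have spliced tRNA entries, which the family sums leave out, so this closeness does not cover those entries. The mean log2 difference between EVs and cells was 2.38 for Ala-AGC, 1.46 for Ala-CGC and -0.68 for Ala-TGC. In the family closest to each it was 2.35 (Gly-GCC), 1.41 (Glu-TTC) and -0.98 (Leu-CAA). How much of each distance comes from the split between EVs and cells was not tested. Ala-TGC was farther from Ala-AGC (1.40) than 42 of the 47 other families were.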

How the data were processed

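RNA of 2 whole-cell and 5 EV libraries was measured, 1 library per group, with groups taken from the sample titles. The authors deposited 1 table of estimated counts, which carry no scaling for depth. Salmon, Novoalign, UMI-tools and cutadapt are the tools, and GRCm38 and mm10 the builds, per the submitters' processing notes. The sources used here do not state tool versions or any removal of duplicate reads. Estimated counts were rounded for intervals and fits. Alanine tRNAs were the entries named tRNA-Ala. The tRNA totals cover 224 tRNA and 15 spliced tRNA entries, and the anticodon families sum the 224 only. The members, lists and tests were chosen with earlier results of these data known.

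Library pairs were compared as log2 ratios with exact conditional binomial 95% intervals, scaled by whole-RNA totals (EVs against cells) or by TMM, the trimmed mean of M values (Dis3l2 comparisons). Fits used edgeR 4.0.16 quasi-likelihood tests (glmQLFit, filterByExpr) on all whole-RNA entries, Benjamini-Hochberg adjustment and a threshold of 0.05, with 4 residual degrees of freedom for EVs against cells and 3 for the Dis3l2 class. SE is the absolute log2 fold change over the square root of F. The fits were also run on simulated data. The outcome is not reported here, and no result rests on it.

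Named were the 3 anticodon sums, the 8 alanine tRNAs of highest mean CPM and, per comparison, up to 5 called each way; tRNA-Ala-AGC-10-1, tRNA-Ala-CGC-6-1, the calls lost without a library and the tRNAs whose libraries do not overlap were named from their values. Alternatives were other scalings, count minimums of 20 and 500, no filter, DESeq2 1.42.0 and each library left out; totals without the most abundant cell transcript and sums per anticodon in the fits were added after seeing the data.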

Additional observations from a re-analysis of the deposited data

How the results depend on the processing

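Libraries were single, so no value here has a spread between cultures, and tRNA-Ala-CGC-4-1, tRNA-Ala-CGC-5-1, tRNA-Ala-CGC-6-1 and tRNA-Ala-CGC-7-1 had under 100 counts in every pair. Replicate numbers only name samples. Scaling was the choice that mattered most for EVs against cells. Scaled to tRNA totals, the number of alanine tRNAs past the rule of size for shNS was 9 instead of 15, and the fit over 7 libraries called 10 instead of 16. The fit that paired EV and cell libraries by line, over the 4 shNS and shDis3l2 libraries with the hairpin as covariate and 1 residual degree of freedom, called 10, all higher. Leaving out each library gave 11 to 14 calls in the EV against cell fit and 0 in every Dis3l2 class fit.

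On the tRNA scale these shNS log2 ratios of measured isodecoders and anticodon sums changed sign: Ala-AGC -0.39, Ala-CGC -1.07, tRNA-Ala-AGC-1-1 -0.70, tRNA-Ala-AGC-2-1 -1.18, tRNA-Ala-AGC-3-1 -1.92, tRNA-Ala-AGC-6-1 -0.93, tRNA-Ala-AGC-7-1 -0.39, tRNA-Ala-CGC-1-1 -1.20, tRNA-Ala-CGC-2-1 -0.83, tRNA-Ala-CGC-3-1 -0.70, tRNA-Ala-TGC-1-1 -0.19, tRNA-Ala-TGC-6-1 -1.22, tRNA-Ala-TGC-7-1 -0.42 and tRNA-Ala-TGC-8-1 -1.33. For shDis3l2 these were Ala-AGC -0.71, Ala-CGC -1.48, tRNA-Ala-AGC-1-1 -2.14, tRNA-Ala-AGC-2-1 -1.51, tRNA-Ala-AGC-7-1 -0.16, tRNA-Ala-CGC-1-1 -1.59, tRNA-Ala-CGC-2-1 -1.16, tRNA-Ala-TGC-1-1 -1.52, tRNA-Ala-TGC-6-1 -0.58, tRNA-Ala-TGC-7-1 -0.31 and tRNA-Ala-TGC-8-1 -1.68. In the fit they were Ala-AGC -0.35, Ala-CGC -1.26, tRNA-Ala-AGC-1-1 -0.79, tRNA-Ala-AGC-2-1 -1.29, tRNA-Ala-AGC-3-1 -2.61, tRNA-Ala-AGC-6-1 -0.38, tRNA-Ala-AGC-7-1 -0.31, tRNA-Ala-AGC-10-1 -0.19, tRNA-Ala-CGC-1-1 -1.37, tRNA-Ala-CGC-2-1 -0.97, tRNA-Ala-CGC-3-1 -0.23, tRNA-Ala-TGC-1-1 -0.60, tRNA-Ala-TGC-5-1 -0.90, tRNA-Ala-TGC-6-1 -0.88 and tRNA-Ala-TGC-8-1 -1.10. The change of denominator itself makes these shifts, by -2.45 for every shNS ratio and -2.96 for every shDis3l2 ratio. tRNA-Ala-TGC-4-1 was at 0.16 in the fit with DESeq2 size factors and at 0.16 with DESeq2.

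In the Dis3l2 comparisons the counts past the rule of size moved by 1 or 2. With at least 500 counts, knockdown EVs had 1 instead of 2; with at least 20, D389N against Vector had 1 instead of 0 (tRNA-Ala-CGC-7-1, with 35.0 against 3.83 counts) and D389N against Dis3l2r 2 instead of 1. Whole-RNA totals also gave 2 for D389N against Dis3l2r (1 higher and 1 lower), and tRNA totals gave 1 instead of 3 for Vector against shDis3l2. The cause of these changes was not tested beyond the change of scale or minimum.

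Of all whole-RNA counts, alanine tRNA took 2.57% and 1.88% in shNS and shDis3l2 cells and 2.95%, 2.74%, 3.48%, 3.26% and 3.03% in shNS, shDis3l2, Vector, Dis3l2r and D389N EVs. With the most abundant tRNA entry of each library left out, its share of tRNA counts was 20.3% and 22.5% in cells and 5.16%, 5.39%, 5.84%, 5.90% and 4.78% in EVs.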
